A study of Schizosaccharomyces pombe with 3 samples.

Results

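The antisense noncoding RNAs described here are the annotated ncRNAs of fission yeast (identifiers starting SPNCRNA) that overlap a gene on the opposite strand without covering the 5′ end of any such gene. They were chosen by position alone from the spans in the deposited count table, with a mean count of at least 10 over the libraries. The rule found 351 of the 1541 SPNCRNA rows in a table of 7049 rows. Of these, 214 lie wholly within the opposite gene and are called internal. The other 137 cover the 3′ end of an opposite gene and are called 3′ overlapping. The gene on the opposite strand with the longest overlap is called the sense gene, and the 351 ncRNAs have 339 sense genes. Of the 3′ overlapping ncRNAs, 8 overlap 2 opposite genes. Some of these, such as SPNCRNA.1017 over *erf1*, lie wholly within their sense gene and cover the 3′ end of the other gene. By position alone the rule found 382 ncRNAs, of which 31 fell below the count minimum. Just outside it were SPNCRNA.89, with a mean count of 7.67, and SPNCRNA.16, with 8.33. Just inside were SPNCRNA.257, with 11.0, and SPNCRNA.1695, with 11.7.

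RNA was compared between 2 independent clones of the slow RNA polymerase II (RNAPII) mutant *rpb1-N494D*, slow #1 and slow #2, and 1 library of the wild-type (WT) parent. In the slow mutant, the largest RNAPII subunit carries an aspartic acid in place of the asparagine at residue 494 near its active site. All 3 strains are h- and carry ade6-M216, leu1-32, ura4-D18 and his3-D1, with fex1 and fex2 deleted. They were grown at 30°C in EMM, a minimal medium, with adenine, histidine, leucine and uracil added, and were collected at an OD600 of 0.5. Because WT has 1 library, its spread was taken to equal that between the slow clones. That spread has 1 residual degree of freedom, and the fit drew it toward a trend over all genes tested. The trend had a median weight of 5.25 prior degrees of freedom, so p-values and standard errors rest largely on it.

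The counts summed to 40746838 in slow #1, 30674459 in slow #2 and 31803128 in WT. *ura4* had 0 counts in every library. *his3*, of which all strains are labelled his3-D1, had 590 and 554 counts in the slow clones, against 511 in WT. The rows of *fex1* and *fex2*, labelled as deleted, held counts, namely 427 and 244 in the slow clones against 549 in WT for *fex1*, and 581 and 566 against 714 for *fex2*. The counts do not tell which bases of these rows were read. *rpb1* itself was at 788 and 837 CPM (counts scaled to library size with TMM factors) in the slow clones, against 792 CPM in WT. *mfm1*, a mating pheromone gene of h- cells, was at 298 and 367 CPM in the slow clones, against 45.2 CPM in WT, and *map2*, the pheromone gene of the opposite mating type, at 41.6 and 44.2 CPM, against 34.2 CPM. In bulk RNA such as this, more RNA per cell and more cells with the RNA cannot be told apart. The ncRNAs are lowly counted, with a median of the mean counts of 270 and a range of 11.0 to 6865, against 3058 for the median of their sense genes. The median standard error of their log2 fold change was accordingly 0.23, against 0.13 for the sense genes.

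As background, antisense ncRNAs are RNAPII transcripts made from the DNA strand opposite to a gene. In fission yeast many start in the downstream gap or in the gene body of their sense genes. Many are kept low by nuclear RNA decay, by RNA interference and by chromatin marks laid down over transcribed genes. Where transcription of both strands crosses, one may lower the other, but many such pairs are transcribed without a known effect. A library that keeps the strand of each RNA is needed to tell the partners apart, and the libraries here were of that kind.

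The 3′ ends of 3 of these ncRNAs are shown because they carry the results below, namely the only member that passed the main threshold and a pair of abundant members with a poly(A) signal hexamer close to the annotated end. Letters are those of the ncRNA strand in the RefSeq genome ASM294v3, and capitals mark the hexamer AATAAA, searched on the ncRNA strand only, any overlaps included. The window of SPNCRNA.1096 (chrIII:37618-37717, minus strand) holds its last 60 annotated bases and the 40 that follow, all within coding sequence of its sense gene SPCC1884.01. Those of SPNCRNA.826 (chrI:2440466-2440495, minus strand), over *cpc2*, and SPNCRNA.875 (chrI:3012486-3012515, minus strand), over *gcv1*, are the last 30 annotated bases.
SPNCRNA.1096: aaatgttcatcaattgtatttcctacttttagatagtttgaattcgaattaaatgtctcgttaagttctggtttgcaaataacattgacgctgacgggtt
SPNCRNA.826: gttagcattaattaattagaatgAATAAAt
SPNCRNA.875: ttAATAAAcaattgtttgttgattccgtaa
The hexamer stood in the last 60 bases of 68 of the 347 members that RefSeq holds, or 19.6%. Its share was 18.4% of the 1444 SPNCRNA rows with a RefSeq entry and 19.1% of 5018 coding genes.

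To see how antisense RNA within and at the ends of genes changed in the slow mutant, all genes were compared in one fit. Internal ncRNAs were on the whole somewhat higher in the slow clones than in WT, and 3′ overlapping ncRNAs were closer to an even split. Internal members had a median log2 fold change of 0.22 (quartiles of -0.03 and 0.49) and 3′ overlapping members one of 0.10 (-0.33 and 0.38), beside 0.01 over all 6418 genes tested and 0.16 over all SPNCRNA tested. Of the internal members, 152 of 214 (71.0%) had a log2 fold change above 0, and of the 3′ overlapping members 80 of 137 (58.4%), beside 50.9% of all genes. The share was 65.1% over all SPNCRNA tested and 68.0% over antisense ncRNAs that cover the start of the opposite gene. In both clones alike, 129 internal members were above WT and 46 below it, and 65 3′ overlapping members were above and 50 below. Antisense ncRNAs that cover the start of the opposite gene had a median of 0.16 (n = 544), and SPNCRNA with no opposite gene one of 0.21 (n = 322), so a median above that of all genes was measured in each of these sets. Scaling the libraries to *nda2*, *act1* and *fba1* set the medians at 0.04 for internal and -0.09 for 3′ overlapping members, with that of all genes at -0.18.

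At the main threshold, an FDR under 0.01 and a change above 1.5-fold in edgeR's quasi-likelihood test, 1 member fell and 0 rose. The background was small as well, since 0.312% of all genes tested rose and 0.39% fell at this threshold. Before adjustment, p was under 0.05 with a higher value for 70 members and with a lower one for 32, beside 17.5% and 17.9% of all genes. DESeq2, at an FDR under 0.01 and 1.5-fold, called 13 members up and 2 down, beside 4.84% and 3.56% of all genes. At an FDR under 0.05 with the same fold, edgeR called 24 members up and 11 down, beside 6.79% and 5.59% of all genes. These 35 are used below as the members that changed at the looser threshold. Among internal members 17 rose and 4 fell (7.94% and 1.87%), and among 3′ overlapping members 7 rose and 7 fell (5.11% each). The shares that rose were thus near that of all genes, and the share of internal members that fell was below it, a difference that was not tested. A low share that fell was not particular to internal members. It was 3.69% over all SPNCRNA tested and 2.94% over antisense ncRNAs that cover the start of the opposite gene. Of the 35, 33 passed 1.5-fold in each clone by itself, and 15 had an FDR under 0.01 in DESeq2. Both counts come from the same libraries by which the 35 were chosen, so they are no independent support.

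**Figure D1:**
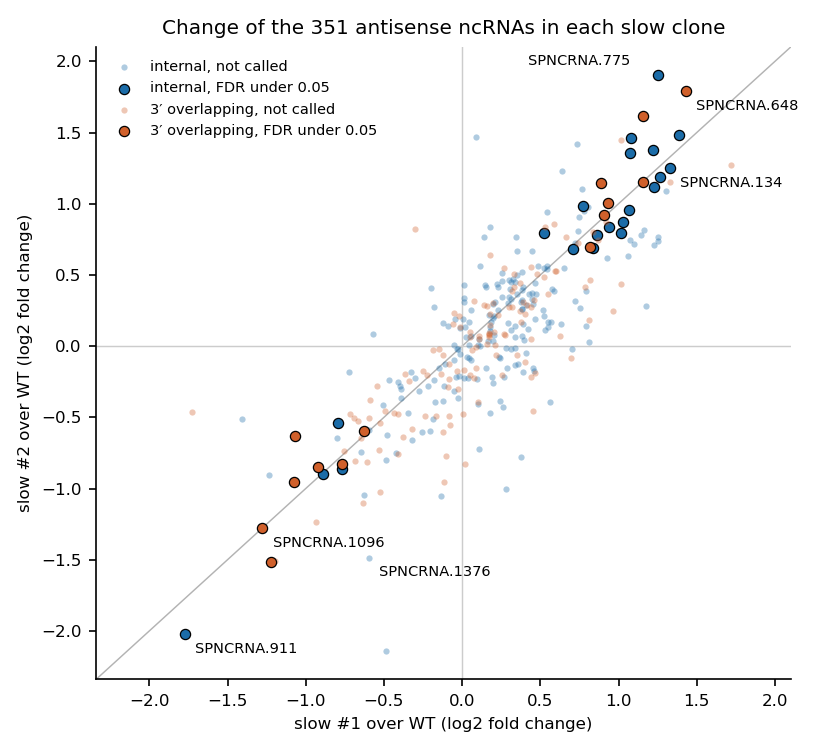
Log2 fold change over WT of each of the 351 antisense ncRNAs in slow #1 (x axis) and slow #2 (y axis), by class, with the line of equal change. Outlined points are the 35 members with an FDR under 0.05 and a change above 1.5-fold. Both axes use the same WT library. SPNCRNA.1096 lies on the line, and SPNCRNA.1376, over *tef103*, lies away from it, at -0.60 in slow #1 and -1.49 in slow #2.

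SPNCRNA.1096 was the member that passed the main threshold. It is 1662 bases long, on the minus strand of chromosome III from 37658 to 39319 (ASM294v2), and enters the 3′ end of SPCC1884.01, a gene for an uncharacterized protein, for 1131 bases, of which 934 are coding. Its level was 29.4 CPM in slow #1 and 29.4 CPM in slow #2, against 71.3 CPM in WT. The clones were thus alike and both below WT, with a log2 fold change of -1.28 ± 0.12 (SE, FDR 0.00714). Its sense gene was lower as well, at 4.49 and 4.73 CPM in the slow clones against 9.25 CPM in WT (log2 fold change -1.005 ± 0.22, FDR 0.0331). Per length, the antisense RNA stood at 567% and 538% of the sense RNA in the slow clones, against 667% in WT. The call of SPNCRNA.1096 did not pass at an FDR under 0.01 with RLE or upper-quartile factors, or without structural and mitochondrial RNAs.

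Among the members that rose at an FDR under 0.05, the largest change was in SPNCRNA.648, over the end of *mre11*. *mre11* encodes the nuclease of the complex that binds and trims DNA double-strand breaks. SPNCRNA.648 (chromosome I, 439141 to 440079) covers only the 3′ UTR of *mre11*, for 840 bases, and reaches past its end. It was at 6.57 and 8.43 CPM in the slow clones, against 2.44 CPM in WT. Both clones were above WT, with a log2 fold change of 1.62 ± 0.29 (FDR 0.0228). *mre11* itself was at 143 and 159 CPM in the slow clones, against 135 CPM in WT, with an FDR of 0.395.

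SPNCRNA.775 lies inside SPAC3H1.06c, a gene annotated as a transporter, near its start (chromosome I, 1943705 to 1943994). It was at 18.2 and 28.6 CPM in the slow clones, against 7.66 CPM in WT (log2 fold change 1.61 ± 0.31, FDR 0.0260). Both clones were above WT, slow #2 more so. The sense gene was at 79.2 and 76.3 CPM in the slow clones, against 117 CPM in WT. Its log2 fold change of -0.58 ± 0.11 had an FDR of 0.0260 and stayed just short of 1.5-fold.

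SPNCRNA.134 and SPNCRNA.1114 are internal members that lie, like SPNCRNA.648, over 3′ UTR only. SPNCRNA.134 lies over *fhn1*, which encodes a protein of eisosome assembly, the plasma membrane furrows of fungi. It was at 37.7 and 35.7 CPM in the slow clones, against 15 CPM in WT (log2 fold change 1.29 ± 0.16, FDR 0.0106). SPNCRNA.1114, over the uncharacterized SPCC320.06, was at 13.9 and 14.8 CPM in the slow clones, against 5.31 CPM in WT (1.43 ± 0.21, FDR 0.0145). In both cases the clones lay close together and well above WT, and the sense genes had log2 fold changes of 0.18 and 0.07 with FDRs of 0.315 and 0.702.

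SPNCRNA.980 is one of the longer members, with 3877 bases, and enters *ayr1* from its 3′ end. *ayr1* encodes 1-acyldihydroxyacetone phosphate reductase, an enzyme of phospholipid synthesis. The ncRNA was at 25.2 and 34.7 CPM in the slow clones, against 11.3 CPM in WT (log2 fold change 1.40 ± 0.24, FDR 0.0211). *ayr1* was at 25.8 and 30.6 CPM in the slow clones, against 28.3 CPM in WT, a log2 fold change of -0.01. SPNCRNA.1136, inside *ggc1*, completes the largest increases. It was at 10.1 and 11.3 CPM in the slow clones, against 4.34 CPM in WT (log2 fold change 1.30 ± 0.23, FDR 0.0221). The remaining members that rose had log2 fold changes between 0.66, of SPNCRNA.839 over the lipase gene *rog1*, and 1.28, of SPNCRNA.498 over *yea4*, which encodes a sugar nucleotide transporter. They include SPNCRNA.1496, over the RNAPII subunit gene *rpb8* (0.76), SPNCRNA.536, over *mas2* of the mitochondrial processing peptidase (1.02), and SPNCRNA.687, over *cph1* of the Clr6 histone deacetylase complex (0.91).

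**Figure D2:**
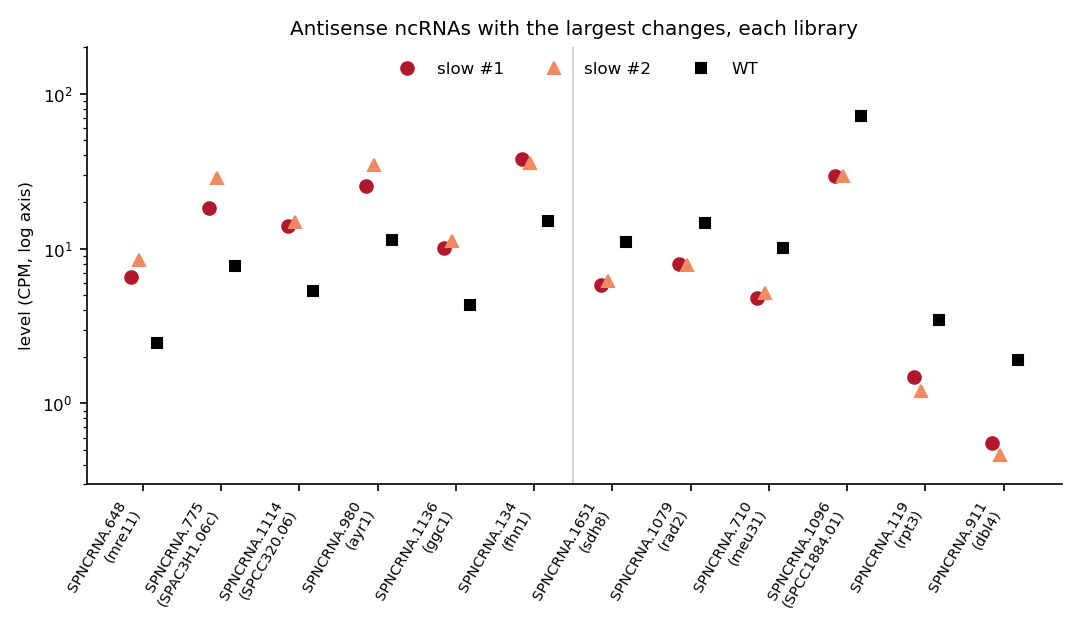
Levels in CPM (log axis) of the 6 members with the largest increase and the 6 with the largest decrease at an FDR under 0.05, in slow #1, slow #2 and WT, with the sense gene in brackets. Each point is 1 library. The choice required a mean count of at least 30 and a change above 1.5-fold in each clone. By that choice both slow clones lie above WT on the left, for example 37.7 and 35.7 against 15 CPM for SPNCRNA.134. They lie below it on the right, for example 29.4 and 29.4 against 71.3 CPM for SPNCRNA.1096.

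The other members that fell had mean counts between 32.7 and 1842. SPNCRNA.911, inside *dbl4*, a gene for a ubiquitin-protein ligase, had the largest decrease and the fewest counts. It was counted 23 and 14 times in the slow clones, against 61 times in WT. These counts amount to 0.556 and 0.467 CPM, against 1.91 CPM (log2 fold change -1.88 ± 0.41, FDR 0.0330). SPNCRNA.119, a 110-base ncRNA at the end of *rpt3*, was counted 61 and 36 times in the slow clones, against 110 times in WT (-1.35 ± 0.32, FDR 0.0406). With DESeq2 neither passed an FDR under 0.05, with 0.125 for SPNCRNA.911 and 0.120 for SPNCRNA.119. *rpt3* encodes an ATPase of the proteasome base, and its RNA was at 934 and 1606 CPM in the slow clones, against 632 CPM in WT. The clones differed widely there, and the change of *rpt3*, 1.01 ± 0.33, had an FDR of 0.0851.

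SPNCRNA.710 enters *meu31*, one of the genes named for their upregulation in meiosis, along nearly its whole length. It was at 4.78 and 5.20 CPM in the slow clones, against 10.1 CPM in WT (log2 fold change -1.01 ± 0.22, FDR 0.0319). *meu31* was at 19.1 CPM in each of the slow clones, against 13.4 CPM in WT, with an FDR of 0.0884. SPNCRNA.1079, inside *rad2*, the gene of the FEN-1 flap endonuclease, was at 7.92 and 7.87 CPM in the slow clones, against 14.7 CPM in WT (-0.89 ± 0.19, FDR 0.0311). SPNCRNA.1651, at the end of *sdh8*, was at 5.82 and 6.13 CPM in the slow clones, against 11.0 CPM in WT (-0.89 ± 0.21, FDR 0.0398). In each of these the clones agreed closely and lay below WT. The others that fell lie over *ptk1*, *cao2*, *meu18*, *ght4* and *psf3*, with log2 fold changes of -0.84, -0.81, -0.80, -0.66 and -0.61.

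Position along the sense gene was described next. The ncRNAs had a median length of 1142 bases when internal and 1219 when 3′ overlapping, and covered a median of 45.6% and 48.4% of the sense gene. Of the 336 members whose sense gene has a coding map in RefSeq, 284 touched coding sequence and 45 touched 3′ UTR only. At an FDR under 0.05, 18 of the 284 rose and 8 fell (6.34% and 2.82%), and 4 of the 45 rose and 1 fell (8.89% and 2.22%), beside 6.79% and 5.59% of all genes. The shares that rose were near the background, and the medians were 0.18 and 0.12. The plot of called members along their sense genes shows no single place in the gene that they share. Separately, 65 members overlap another annotated feature on their own strand. Reads in the shared part cannot be assigned to one feature, while levels per length use the full length. Of those 65, 2 rose and 6 fell (3.08% and 9.23%, beside the same 6.79% and 5.59%), 50.8% were above 0 and the median was 0.04. The 6 are the members over *dbl4*, *rad2*, *sdh8*, *ptk1*, *cao2* and *psf3*, the last of which overlaps 5 snoRNA rows. The part of these neighbours in the change was not tested.

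**Figure D3:**
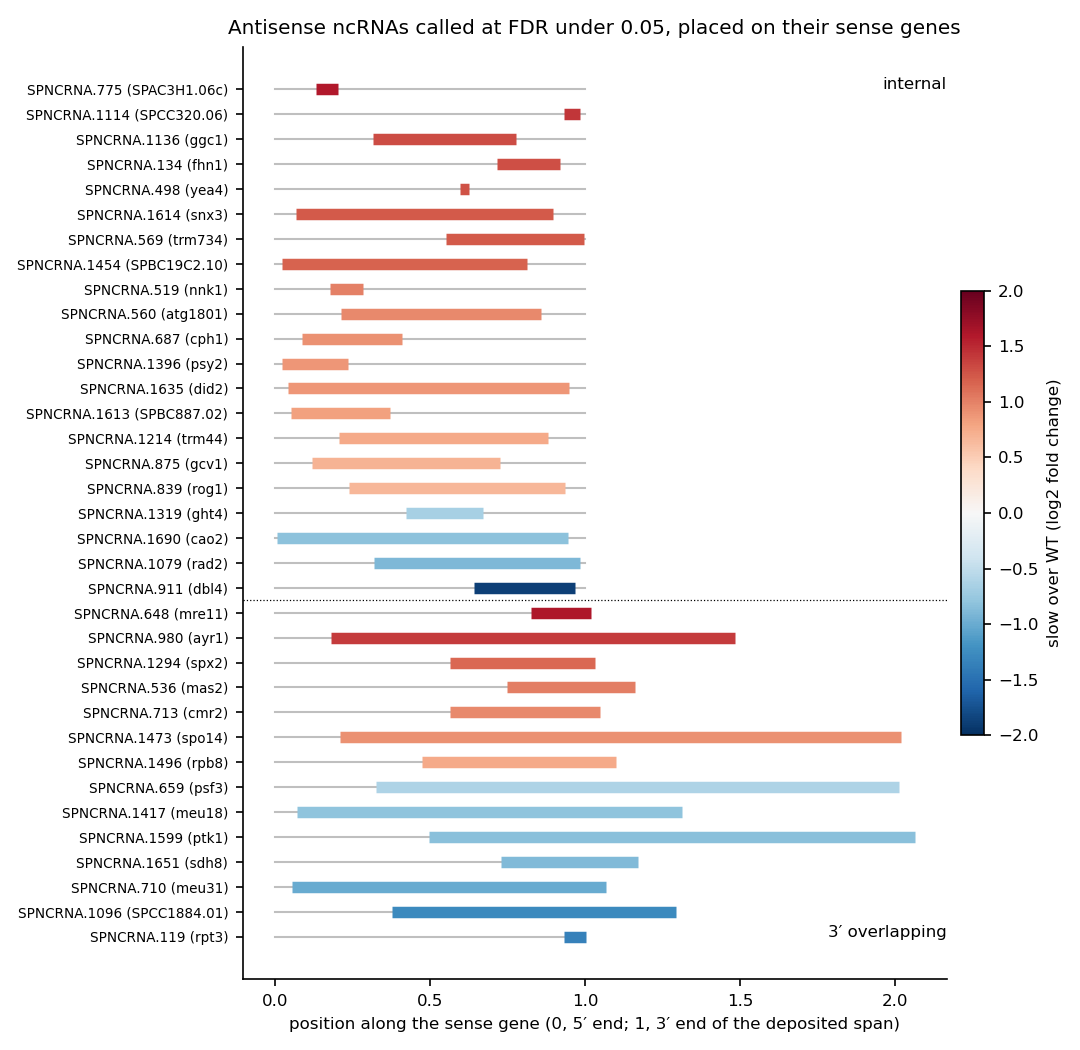
The 35 members with an FDR under 0.05, drawn on their sense genes, each scaled to run from its 5′ end (0) to its 3′ end (1) in the deposited table. Thick bars are the antisense ncRNAs, colored by the log2 fold change of slow over WT, and thin lines are the sense genes. The upper block holds the 21 internal members, 17 of which rose, and the lower block the 14 3′ overlapping members, 7 of which rose.

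The change of each ncRNA was then set beside that of its sense gene. Across pairs the relation was weak, and its rank correlation differed in sign between the classes. Spearman's rho was 0.16 over the 214 internal pairs (Pearson's r 0.13) and -0.14 over the 137 3′ overlapping pairs (Pearson's r -0.07). By clone rho was 0.16 and 0.18 for internal pairs and -0.10 and -0.18 for 3′ overlapping pairs. Pearson's r by clone was 0.12 and 0.15 for internal pairs. For 3′ overlapping pairs it was 0.01 in slow #1 and -0.13 in slow #2, so its sign differed between the clones. These are descriptions without a test, since both partners come from the same libraries and the same single WT, and pairs are not replicates. With an overlap of at least 100 bases, rho of the 3′ overlapping pairs was -0.07. The partners had opposite signs in 59.1% of 3′ overlapping pairs, in 48.6% of internal pairs and in 49.7% of 539 pairs whose ncRNA covers the start of the gene.

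The calls of both partners were counted next. Over the sense genes, edgeR called 1 up and 0 down at the main threshold, and p before adjustment was under 0.05 for 53 higher and 51 lower ones (15.6% and 15.04%, beside 17.5% and 17.9% of all genes). DESeq2 called 12 sense genes up and 5 down, a smaller share in each direction than the 4.84% and 3.56% of all genes. At an FDR under 0.05 edgeR called 18 of the 339 up and 8 down, or 5.31% and 2.36%, beside 6.79% and 5.59% of all genes, so the sense genes were called no more often than genes at large. The median log2 fold change over the 339 was -0.01. Of the 35 members called at that level, 3 (8.57%) had a sense gene called too, beside 12.4% of all genes and 7.67% of all sense genes called in either direction, which is near the background. A further count is that 22 had a sense gene with an unadjusted p of 0.05 or more. Of the 24 members that rose, 9 had a sense gene above 0 and 15 below. Of the 11 that fell, 6 had one above 0 and 5 below.

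**Figure D4:**
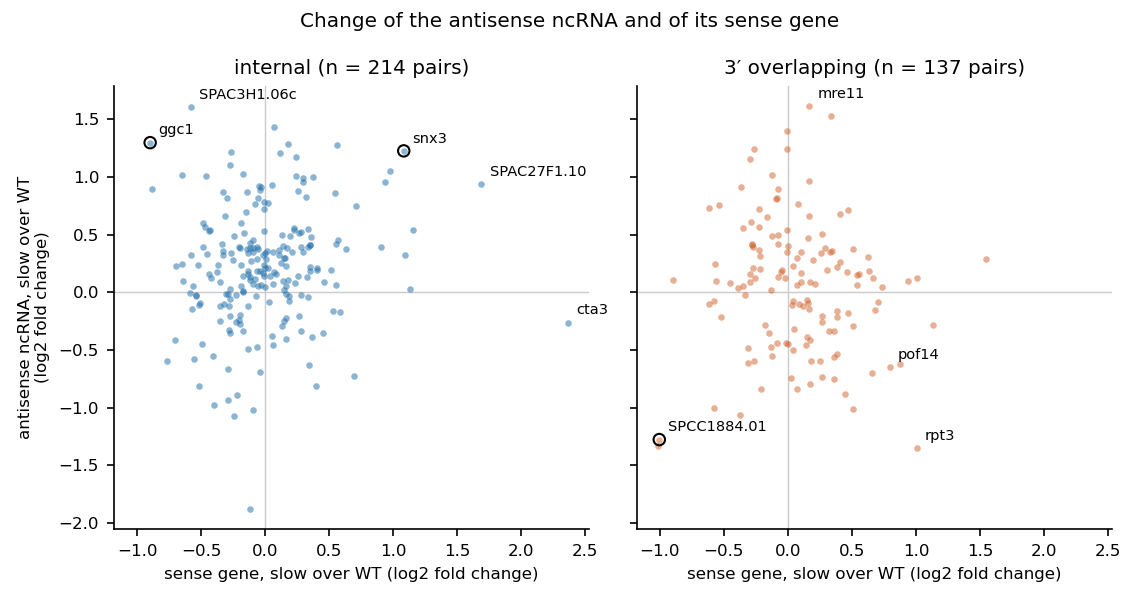
Log2 fold change (slow over WT) of the antisense ncRNA (y axis) against that of its sense gene (x axis), for 214 internal and 137 3′ overlapping pairs. Circles mark the 3 pairs in which both partners passed an FDR under 0.05 and 1.5-fold, and names are those of the sense genes. Points fall on all sides of both zero lines, with a rho of 0.16 in the left panel and -0.14 in the right.

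The 3 pairs with both partners called moved in 3 different ways. At SPCC1884.01 both partners fell, as described. At *snx3*, which encodes a sorting nexin of the endosome, both rose. SPNCRNA.1614 was at 4.52 and 4.27 CPM in the slow clones, against 1.88 CPM in WT (log2 fold change 1.23 ± 0.29, FDR 0.0414). *snx3* was at 194 and 169 CPM in the slow clones, against 85.8 CPM in WT (1.08 ± 0.14, FDR 0.0117). SPNCRNA.1614 was thus far below *snx3* in every library, and both changed by similar amounts. Whether reads of the sense RNA counted on the opposite strand add to the ncRNA was not tested. At *ggc1*, the gene of the mitochondrial guanine nucleotide carrier, the partners moved in opposite directions. While SPNCRNA.1136 rose, *ggc1* fell to 40.9 and 40.5 CPM in the slow clones, against 75.9 CPM in WT (-0.90 ± 0.12, FDR 0.0121). Per length the antisense RNA was at 47.5% and 53.3% of the sense RNA in the slow clones, against 11.0% in WT.

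Other pairs with large values on both strands had at least 1 partner short of the threshold. Inside *dcn1*, a gene of protein neddylation, SPNCRNA.1373 was at 5.85 and 6.60 CPM in the slow clones, against 3.34 CPM in WT (log2 fold change 0.89, FDR 0.0640). *dcn1* itself fell to 30.2 and 30.7 CPM, against 56.3 CPM in WT (-0.89 ± 0.13, FDR 0.0145). Inside *rec11*, a cohesin subunit gene of meiosis, SPNCRNA.1180 had a log2 fold change of -0.72 with an FDR of 0.0814. *rec11* rose, at 45.5 and 43.4 CPM in the slow clones against 27.5 CPM in WT (0.69 ± 0.14, FDR 0.0279). *pof14*, which encodes an F-box protein, rose by 0.79 ± 0.19 (FDR 0.0398), while SPNCRNA.807 at its end had a value of -0.65 (FDR 0.147). Over the uncharacterized SPBC337.02c the values were -0.70 for SPNCRNA.42 and 0.66 for the gene, with FDRs of 0.0936 and 0.0530.

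Pairs with the same sign on both strands included SPAC27F1.10, an uncharacterized gene that rose by 1.69 ± 0.33 (FDR 0.0270) over SPNCRNA.978 with 0.94 (FDR 0.0975). They also included the arylsulfatase gene SPBPB10D8.02c, where the values were 0.94 for the gene and 0.96 for SPNCRNA.1307, and SPCC1322.09, with 0.47 and 0.72 for SPNCRNA.1185. Over *pdi4*, of a protein disulfide isomerase, they were -0.58 for the gene and -1.0 for SPNCRNA.906, which was at 0.942 and 2.27 CPM in the slow clones against 3.13 CPM in WT. Neither partner of these last 3 pairs passed an FDR under 0.05.

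*cta3* was the one sense gene past the main threshold. It encodes a P-type calcium ATPase and was at 85.7 and 111 CPM in the slow clones, against 19.1 CPM in WT (log2 fold change 2.36 ± 0.20, FDR 0.00596). This call did not pass with RLE factors (FDR 0.0143) or without structural and mitochondrial RNAs. The antisense SPNCRNA.1374 runs inside it for 3639 bases and was at 29.8 and 31.4 CPM in the slow clones, against 36.7 CPM in WT. Its log2 fold change was -0.26 ± 0.14, with an FDR of 0.232. In length-normalized level the ncRNA was at 45.6% and 37.2% of *cta3* RNA in the slow clones, against 252% in WT. The balance between the strands at *cta3* thus passed equality, by way of the sense strand.

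To describe this balance for all members, the level per length (CPM per kb) of each ncRNA was divided by that of its sense gene. In WT the ratio had a median of 14.9% and a range of 0.623% to 1266%, and the medians were 18.8% in slow #1 and 17.5% in slow #2. In 309 pairs the sense RNA was higher in all 3 libraries, and in 21 pairs the antisense RNA was. In 7 pairs the antisense RNA was higher in WT only. In 8 pairs it was higher in both slow clones only, and in 6 the clones differed. These groups were formed from the values themselves, so they carry no test.

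The 7 pairs with more antisense RNA in WT only were *cta3*, *cao2*, *otg2*, *mug126*, SPAC6C3.03c, SPAC23C11.06c and SPAC16C9.01c, named here after their values were seen. At *cao2*, of a copper amine oxidase-like protein, the ratio was 74.9% and 84.0% in the slow clones, against 183% in WT. There SPNCRNA.1690 fell (log2 fold change -0.81 ± 0.14, FDR 0.0209) and *cao2* had a value of 0.40 (FDR 0.151). At *otg2* and SPAC16C9.01c it was the sense gene that rose, by 0.70 and 0.90 with FDRs of 0.0428 and 0.0208. Some ratios lay near equality, such as 100.4% at SPAC16C9.01c in WT and 99.7% at SPAC6C3.03c in slow #1. In the other direction stood *fhn1*, SPCC320.06, SPAC3H1.06c, *trm734*, *rog1*, *mug124*, SPAC11D3.18c and *bst1*. At SPAC3H1.06c the ratio was 326% and 531% in the slow clones, against 93.1% in WT. At *trm734* it was 128% and 155%, against 50.5%, and there SPNCRNA.569 rose by 1.22 ± 0.18 (FDR 0.0147). At *mug124* the ratio was close to equality in the slow clones, at 106% and 102%, against 64.4% in WT.

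Some genes kept more antisense than sense RNA in every library while the ratio moved. At *hop1*, which encodes a protein of the meiotic chromosome axis, SPNCRNA.1602 was at 20.8 and 18.1 CPM in the slow clones, against 30.0 CPM in WT. *hop1* rose, at 11.2 CPM in each of the slow clones against 6.09 CPM in WT (log2 fold change 0.87 ± 0.21, FDR 0.0406). The ratio was 162% and 141% in the slow clones, against 429% in WT. The ncRNA's own value, -0.62 ± 0.17, had an FDR of 0.0527. At *ppk31*, of a protein kinase, the sense gene rose by 0.94 ± 0.14 (FDR 0.0161) and the ratio was 125% and 142%, against 239%. The highest ratio in WT was at *hsp3102*, with 1071% and 1696% in the slow clones against 1266% in WT, where neither strand passed an FDR under 0.05.

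**Figure D5:**
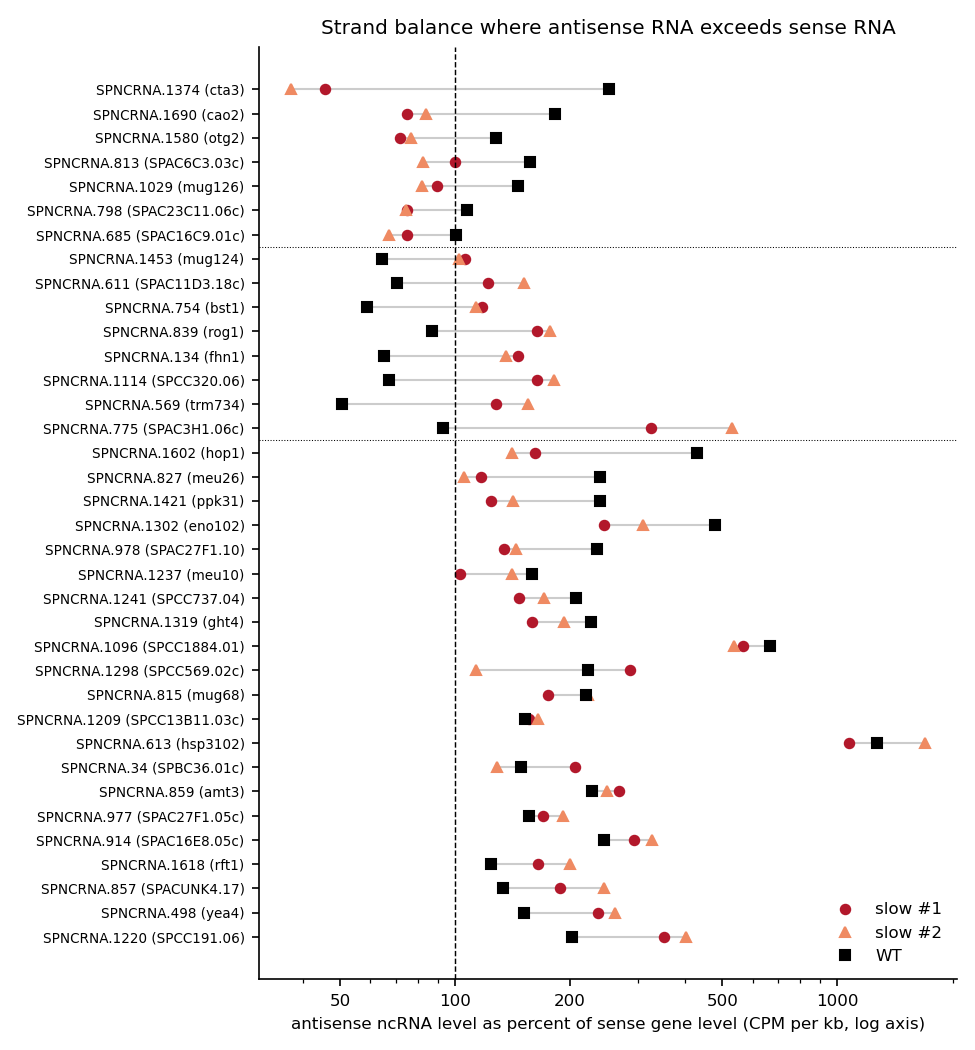
Level of the antisense ncRNA as a percent of that of its sense gene (both in CPM per kb, log axis) in slow #1, slow #2 and WT. Shown, from top to bottom, are the 7 pairs above 100% in WT only, the 8 above 100% in both slow clones only and the 21 above it in every library, and the dashed line marks equal levels. *cta3* is at 45.6% and 37.2% against 252%, and SPAC3H1.06c at 326% and 531% against 93.1%.

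Where a single sense gene has more than one antisense ncRNA, these could be compared within the gene. There were 12 such genes with 24 members, 7 of them with an internal and a 3′ overlapping member, of which the 3′ overlapping one had the higher log2 fold change in 4. The values within a gene differed by more than 1 in 5 genes, in some of which a member had few counts. At *mre11* the internal SPNCRNA.647 had a log2 fold change of -0.02 (FDR 0.964), against 1.62 for SPNCRNA.648. At *ggc1* the 3′ overlapping SPNCRNA.579, with 39 and 15 counts in the slow clones against 22 in WT, had a value of 0.11, against 1.30 for SPNCRNA.1136. At *spx2*, of an SPX domain protein, SPNCRNA.1294 rose, at 24.2 CPM in each slow clone against 10.8 CPM in WT (1.16 ± 0.17, FDR 0.0147), and the internal SPNCRNA.40 had -0.93 (FDR 0.259). The differences between the members of a gene were not tested.

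The 4 members of each class with the highest level per length were described as well. SPNCRNA.1376, inside *tef103*, one of the genes for translation elongation factor EF-1 alpha, had the highest level, with a mean of 608 CPM per kb. It was at 194 and 105 CPM in the slow clones, against 294 CPM in WT (log2 fold change -0.97 ± 0.32, FDR 0.0833). The clones lay apart from each other as well as from WT, and *tef103* has near-identical copies, so its reads are uncertain. SPNCRNA.639, over the mitochondrial chaperonin gene *mcp60*, and SPNCRNA.92, over the 5′ UTR of the plasma membrane proton pump gene *pma1*, had values of 0.14 and 0.24 with FDRs of 0.445 and 0.308.

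Of these 8, SPNCRNA.875, whose 3′ end is printed above, was the one that rose. It lies inside *gcv1*, which encodes the T subunit of glycine decarboxylase, and was at 107 and 105 CPM in the slow clones, against 65.4 CPM in WT (log2 fold change 0.70 ± 0.12, FDR 0.0203). *gcv1* was at 667 and 718 CPM in the slow clones, against 768 CPM in WT (FDR 0.519). SPNCRNA.826, the other one with a printed hexamer, enters *cpc2*, the gene of the ribosome-bound RACK1 protein. It was at 148 and 134 CPM in the slow clones, against 151 CPM in WT (-0.10 ± 0.12, FDR 0.598), while *cpc2* fell to 419 and 416 CPM, against 639 CPM in WT (-0.61 ± 0.13, FDR 0.0329). The ncRNAs over *rps1402*, *hcs1* and *atp3* had log2 fold changes of 0.65, 0.15 and 0.26 and FDRs of 0.0640, 0.474 and 0.400. *hcs1*, of HMG-CoA synthase, was close to the fold threshold itself, with 0.54 ± 0.13. Of the members that rose and have a RefSeq end, 4 of 24 had the hexamer in their last 60 bases, and of those that fell 0 of 9.

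Sense genes with meiotic names were taken as a group, by symbols starting with mug, meu, mei, spo, mcp, mde, rec, mfr, bqt or moa. This takes in *mcp60*, the chaperonin, and *spo14*, an exchange factor of the secretory pathway, which do not act in meiosis only, and it leaves out *hop1*. Of the 22 genes, 3 rose and 1 fell at an FDR under 0.05 (13.6% and 4.55%, beside 6.79% and 5.59% of all genes), 16 were above 0 and the median was 0.23, beside -0.01 over all sense genes. Of their 25 antisense ncRNAs, 1 rose and 2 fell (4.0% and 8.0%), 11 were above 0 and the median was -0.04, beside 0.17 over all members. The sense genes that rose were *mug147* (1.55, FDR 0.0122), *mug135* (1.13, FDR 0.0344) and *rec11*, and the one that fell was *mug64* (-0.71, FDR 0.0224). *mug147* was at 75.7 and 103 CPM in the slow clones, against 30.5 CPM in WT, and its antisense SPNCRNA.1668 was at 7.25 and 7.10 CPM, against 5.88 CPM (0.29, FDR 0.397). The ncRNAs that fell lie over *meu31* and *meu18*, and the one that rose, SPNCRNA.1473, over *spo14* (0.91, FDR 0.0262). Medians of both kinds were lower with scaling to *nda2*, *act1* and *fba1*, at 0.04 and -0.21, beside -0.19 over all sense genes and -0.01 over all members with that scale.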

How the data were processed

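Per the labels, ribosomal RNA was removed from total RNA, and stranded paired-end libraries were sequenced. The authors trimmed reads with Trimmomatic 0.36, aligned them to ASM294v2 with STAR 2.5.1 and made the deposited counts per gene with featureCounts (version not given in the sources used here), by strand. The deposited values are raw counts, without normalization. Gene lengths, the other kind of value in the deposited table, are summed exon lengths.

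Counts were fitted in R 4.3.3 with edgeR 4.0.16: filterByExpr (minimum count 10, minimum total 15), TMM factors, quasi-likelihood test, Benjamini-Hochberg adjustment over 6418 genes. The common dispersion was 0.0124. Standard errors were taken from the F statistic and the fitted change. DESeq2 1.42.0 was an alternative. Values per clone come from fits of 1 clone against WT with the dispersions kept, and carry no test. Names, coding maps and sequences are from RefSeq ASM294v3 (6860 of 7049 identifiers matched). Of 1444 matched SPNCRNA rows, 1413 have the same coordinates in both builds, the 3 printed ones included. The fit was also run on simulated counts with known changes. These were drawn with the same spread in WT and the clones, so they cannot test the spread assumed for WT.

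Members and lists were chosen with earlier results of these data known. Named are each member called at the main threshold, the 6 largest changes each way (FDR under 0.05, mean count of at least 30, above 1.5-fold in each clone), the 4 highest levels per class, members with a called sense gene, and the 3 pairs per class with the largest opposite and same-direction changes. Genes named beyond this rule were chosen after their values were seen.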

Additional observations from a re-analysis of the deposited data

How the results depend on the processing

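Depth limits the ncRNAs, of which 31 have a mean count under 50, and the single WT library limits every call. No paired analysis was possible because WT has 1 library, so the groups share fewer than 2 replicate numbers. Without either slow clone no test remains, and calls were not counted. The main settings called 0 members up and 1 down, and 1 sense gene up and 0 down. In the same order the counts were 24, 11, 18 and 8 at an FDR under 0.05, and 13, 2, 12 and 5 with DESeq2. Scaling to *nda2*, *act1* and *fba1* gave 8, 12, 11 and 25. No filter on low counts gave 6, 1, 6 and 3. Without the 11 members under 2% of the level per length of their sense gene in WT, the member counts were 0 up and 1 down. RLE factors gave 0 in all 4 counts, as did leaving out structural and mitochondrial RNAs, and upper-quartile factors gave 0 members down. By construction the last 3 change only library factors or the genes tested; why the calls of SPNCRNA.1096 and *cta3* were lost was not tested beyond that. The median log2 fold change was 0.036 for internal and -0.093 for 3′ overlapping members with the same 3 genes as scale. Without 1 clone it ranged from 0.16 to 0.27 for internal members and from 0.016 to 0.11 for 3′ overlapping ones. Spearman's rho of 3′ overlapping pairs was -0.074 with an overlap of at least 100 bases, and ranged from -0.18 to -0.10 without 1 clone. That of internal pairs ranged from 0.16 to 0.18. Of 300 values of 60 named genes under 5 alternatives, 6 changed sign, 5 with the 3 genes as scale and 1 without slow replicate 1, all of them in genes that were not called.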

Other observations

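Of 23 sense genes annotated as transporters, 5 (21.7%) had a log2 fold change above 0, with a median of -0.25, beside 48.7% and -0.01 over all sense genes. Their 24 antisense ncRNAs were like the other members, with 17 (70.8%) above 0 and a median of 0.19, beside 66.1% and 0.17 over all members. Neither difference was tested. At an FDR under 0.05 and 1.5-fold, *cta3* rose and *ggc1* fell among the genes (4.35% each, beside 6.79% and 5.59% of all genes), and the ncRNAs over SPAC3H1.06c, *ggc1* and *yea4* rose while that over the hexose transporter gene *ght4* fell (12.5% and 4.17%). With the scale of *nda2*, *act1* and *fba1* the medians were -0.43 and 0.004, beside -0.19 over all sense genes and -0.01 over all members. Over 17 kinase genes, 3 rose and 1 fell (17.6% and 5.88%), and of their 17 ncRNAs 1 rose and 1 fell (5.88% each, medians 0.04 and -0.005). Ribosomal protein, transcription factor and ubiquitin ligase genes among the sense genes were read as well. Of these, 0 of 4, 0 of 1 and 3 of 7 were above 0, with medians of -0.09, -0.05 and -0.08.

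Genes known to limit or end antisense and noncoding transcription were read from a list of 39, of which 38 were matched. In edgeR at the main threshold 0 rose and 0 fell, p before adjustment was under 0.05 for 3 higher and 6 lower ones (7.89% and 15.8%, beside 17.5% and 17.9% of all genes), and DESeq2 called 1 up and 2 down. At an FDR under 0.05, 1 rose and 2 fell (2.63% and 5.26%, beside 6.79% and 5.59%), so the list was called no more often than genes at large. The decapping activator gene *lsm1* rose (278 and 352 CPM in the slow clones, against 195 CPM in WT, log2 fold change 0.69). The exosome nuclease gene *dis3* fell to 243 and 238 CPM, against 379 CPM in WT (-0.66), and *mmi1*, which marks meiotic RNAs for decay, to 113 and 116 CPM, against 177 CPM in WT (-0.63). Of the 7 genes of the termination group 0 were called, with an unadjusted p under 0.05 for 3. Their values ran from -0.47 for *pcf11* to -0.007 for *rna14*, and in 4 of the 7 both clones had the same sign.

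Of the 31 ncRNAs that met the rule by position but not by count, 21 had 0 counts in every library.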
